A study of Mus musculus with 7 samples.

Results

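A set of 10 genes that mark fat cells, of 55487 annotated genes, was followed in RNA from mouse thoracic aortas. They were picked as known markers, with no threshold on their values. The 5 thermogenic markers *Ucp1*, *Cidea*, *Dio2*, *Elovl3* and *Ppargc1a* are typical of brown fat, and the 5 general fat markers *Adipoq*, *Plin1*, *Fabp4*, *Lep* and *Cfd* are made by white and brown adipocytes alike, with *Lep* made mostly by white fat. Libraries came from 3 *Col3a1*+/G182R and 4 *Col3a1*+/+ mice, 1 library per mouse, all on the C57BL/6 strain and 7 weeks old, and male per the study's methods. *Col3a1*+/G182R mice are heterozygous in every cell for a knock-in glycine substitution (p.G182R) in the triple helix of type III collagen, derived from embryonic stem cell clones, and model vascular Ehlers-Danlos syndrome, in which arteries rupture. *Col3a1*+/+ mice carry only wild-type alleles. The comparison asks how far the fat signal of the aorta, and its thermogenic part in particular, differed between the genotypes.

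The thoracic aorta of the mouse lies in perivascular fat, and this fat resembles brown fat. Brown adipocytes burn fatty acids: noradrenaline acts on beta-adrenergic receptors, cAMP rises, lipid droplets are broken down, and UCP1 lets protons back across the inner mitochondrial membrane so that energy is released as heat. White adipocytes store lipid in 1 large droplet and secrete hormones such as adiponectin and leptin. The study's methods describe stripping the fat from the piece of thoracic aorta that was frozen, while the labels of these libraries say only that aortas were taken out and flash frozen. No library was labelled as perivascular fat, so the position of the fat cells around the vessel is background and was not measured.

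Promoter windows from RefSeq (build GRCm38.p6, 250 bases before to 50 bases after the start of the gene) were at hand for 7 of the 10 genes, and not for *Cidea*, *Elovl3* and *Fabp4*. Those of *Ucp1*, *Dio2* and *Adipoq* are shown, the only windows of the 7 with a match to the motifs named next. Capitals mark matches on either strand to TATAAA, which positions transcription at many starts, to CCAAT, which binds nuclear factor Y, to AGGTCA, the core read by many nuclear receptors, or to TGACGTCA, the full cAMP response element. The windows lie at chr8:83290098-83290397 (+ strand), chr12:90738989-90739288 (- strand) and chr16:23146286-23146585 (+ strand), and each sequence is given 5′ to 3′ in the direction of its gene.
Ucp1: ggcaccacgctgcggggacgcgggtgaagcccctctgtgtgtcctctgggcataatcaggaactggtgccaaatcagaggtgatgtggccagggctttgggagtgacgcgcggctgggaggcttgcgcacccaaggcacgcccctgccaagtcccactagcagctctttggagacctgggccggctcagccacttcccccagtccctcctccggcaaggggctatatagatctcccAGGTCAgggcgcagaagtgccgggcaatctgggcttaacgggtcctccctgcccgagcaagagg
Dio2: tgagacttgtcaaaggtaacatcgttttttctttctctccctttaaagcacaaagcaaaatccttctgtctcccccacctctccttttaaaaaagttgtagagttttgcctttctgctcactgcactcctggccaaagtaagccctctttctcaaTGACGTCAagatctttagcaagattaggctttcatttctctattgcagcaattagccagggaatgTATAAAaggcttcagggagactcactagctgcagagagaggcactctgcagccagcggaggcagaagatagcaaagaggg
Adipoq: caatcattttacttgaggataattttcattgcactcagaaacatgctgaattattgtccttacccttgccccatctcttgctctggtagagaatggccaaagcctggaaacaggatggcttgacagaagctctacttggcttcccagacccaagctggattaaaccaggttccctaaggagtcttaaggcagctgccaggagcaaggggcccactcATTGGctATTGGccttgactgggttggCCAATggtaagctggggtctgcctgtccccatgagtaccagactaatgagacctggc
The *Ucp1* window held 1 AGGTCA, starting 14 bases before the start of the gene. The *Dio2* window held the palindromic TGACGTCA, starting 95 bases before the start, and a TATAAA starting 30 bases before it. All distances here are from the RefSeq start. The gene spans given below come from another annotation, GENCODE M21. Its start for *Dio2*, at 90738438 on the - strand, lies downstream of this whole window. *Dio2* encodes an enzyme that is known to be induced through cAMP. The *Adipoq* window held CCAAT 3 times, starting 34, 27 and 7 bases before the start, where the first 2 are on the opposite strand and read ATTGG here. No other window of the 7 held any of the 4 motifs. Of all 32851 windows in the table, 13.6% held TATAAA, 37.4% CCAAT, 16.3% AGGTCA and 1.79% TGACGTCA, so the cAMP response element was the least common of these matches. It is also the longest of the 4 motifs, and a longer motif is matched less often by its length alone. A match describes these letters and is not a measured binding site.

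The libraries held 18820015 to 23953746 expected counts in *Col3a1*+/G182R aortas and 13693861 to 21634680 in *Col3a1*+/+ aortas, and 15688 genes, all 10 fat markers among them, had enough counts to be tested. Total *Col3a1* RNA does not check the genotype labels, since the counts do not separate the alleles. The fourth *Col3a1*+/+ library had the lowest depth and stood farthest from the others on the first principal component (65.6, against -35.2 to 31.2 in the other 6 libraries). The 10 smooth muscle markers such as *Acta2* and *Myh11* summed to 33700 to 39400 CPM (counts scaled to library size) in *Col3a1*+/G182R aortas and 27800 to 42200 CPM in *Col3a1*+/+ aortas, where the fourth was the lowest. The 10 fat markers summed to 2050 to 3740 CPM in *Col3a1*+/G182R aortas and 1780 to 3570 CPM in *Col3a1*+/+ aortas, where the fourth was the highest. The 10 genes together took 0.310%, 0.561% and 0.582% of all TPM (transcript abundance scaled to the library and to transcript length) in *Col3a1*+/G182R replicates 1 to 3, and 0.265%, 0.255%, 0.331% and 0.533% in *Col3a1*+/+ replicates 1 to 4. The groups overlapped, because the fourth *Col3a1*+/+ aorta was close to the upper *Col3a1*+/G182R aortas and the first *Col3a1*+/G182R aorta was close to the third *Col3a1*+/+ aorta. In whole tissue, more fat cells and more RNA of these genes per fat cell cannot be told apart, and this holds for every value below.

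Levels of different genes were compared in TPM, which accounts for transcript length. *Fabp4*, which encodes the fatty acid carrier of adipocytes, ranked 48th among all genes by mean TPM in *Col3a1*+/+ aortas, and *Cfd*, which encodes the secreted complement protease adipsin, ranked 181st. *Ucp1* ranked 430th, *Cidea* 808th and *Adipoq* 1094th. *Plin1* followed at rank 2919, *Dio2* at 5444 and *Elovl3* at 6774. *Ppargc1a* and *Lep* were the lowest of the 10 markers, at ranks 14678 and 14861 of all 55487 genes. In this order, the ranges of neighbouring genes over the 4 *Col3a1*+/+ aortas overlapped except at 3 steps. Those were *Fabp4* above *Cfd*, *Adipoq* above *Plin1*, and *Elovl3* above *Ppargc1a*. Within each of these aortas, *Cfd* also lay above *Ucp1*, *Ucp1* above *Cidea*, *Cidea* above *Adipoq* and *Plin1* above *Dio2*. The order of *Dio2* and *Elovl3*, and that of *Ppargc1a* and *Lep*, differed between aortas. The low levels of *Lep* beside high *Ucp1* and *Cidea* held in both genotypes. Levels of other brown fat genes differed widely, and the 5 given here were named after their values were seen. *Cox8b*, a respiratory chain subunit, had 350.11 to 701 TPM in *Col3a1*+/G182R aortas and 322 to 651 TPM in *Col3a1*+/+ aortas. *Cox7a1*, another, had 137 to 290.5 TPM in *Col3a1*+/G182R aortas and 129 to 272 TPM in *Col3a1*+/+ aortas. *Prdm16*, a transcription factor of brown fat, had 15.2 to 20.1 TPM in *Col3a1*+/G182R aortas and 13.1 to 21.9 TPM in *Col3a1*+/+ aortas. Of the transcription factor genes that mark classical brown fat, *Zic1* was listed at 0 to 0.06 TPM in *Col3a1*+/G182R aortas and 0 to 0.04 TPM in *Col3a1*+/+ aortas, and *Lhx8* at 0.1 to 0.45 TPM in *Col3a1*+/G182R aortas and 0.2 to 0.42 TPM in *Col3a1*+/+ aortas. *Zic1* and *Lhx8* had too few counts to be tested.

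**Figure D1:**
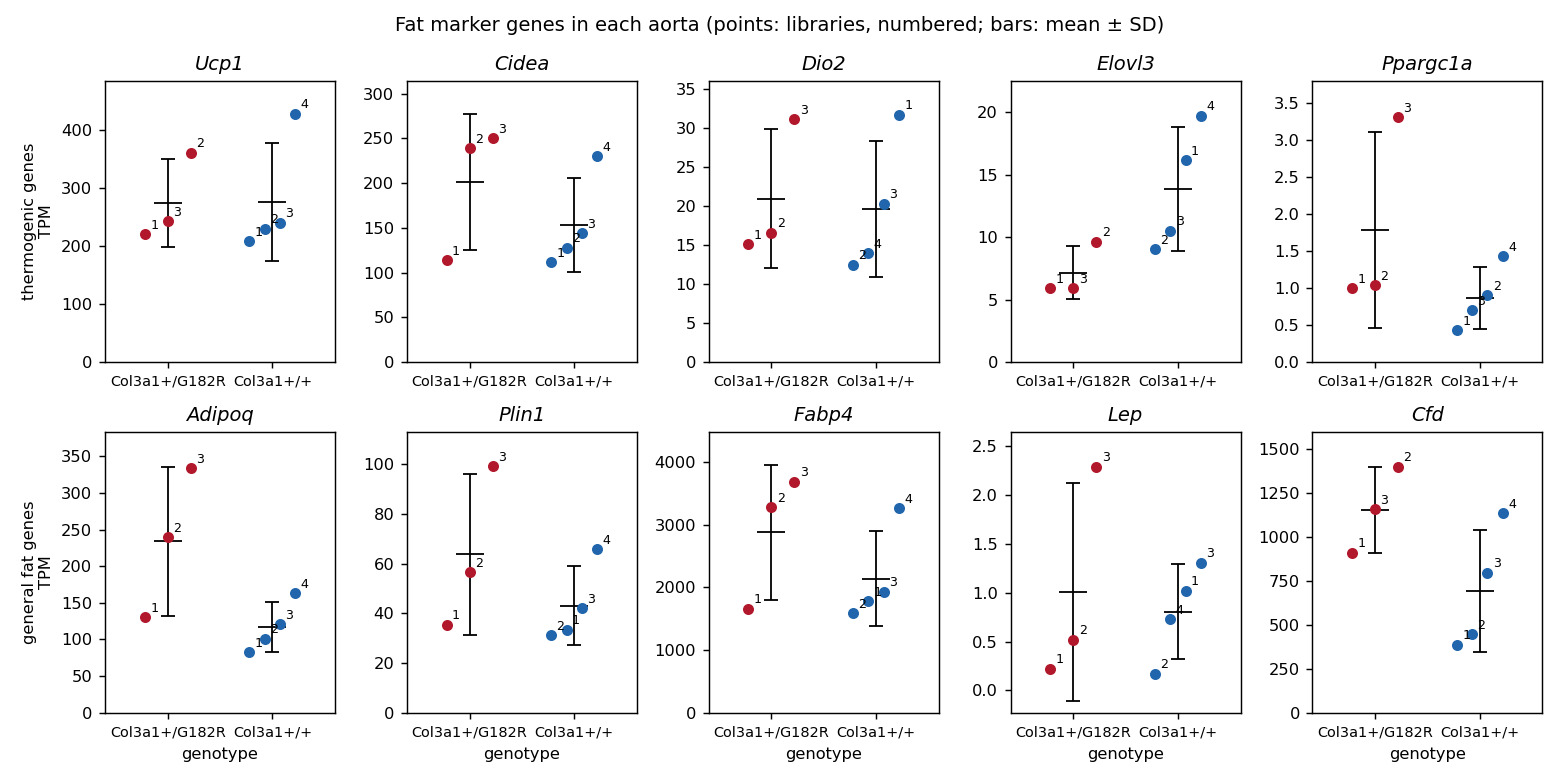
TPM of each fat marker gene (vertical axes, starting at 0 apart from the *Lep* panel, where the SD bar reaches below it) in 3 *Col3a1*+/G182R and 4 *Col3a1*+/+ aortas, with numbered points for libraries and bars for mean ± SD. *Adipoq* was above 120.96 TPM in all 3 *Col3a1*+/G182R aortas while 3 of 4 *Col3a1*+/+ aortas were at or below it, and *Ucp1* covered nearly the same range in both genotypes.

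*Ucp1*, the uncoupling protein itself (chromosome 8, 83290352 to 83298452, + strand, GRCm38), had 221, 361 and 243 TPM in *Col3a1*+/G182R aortas, against 209, 231, 241 and 429 TPM in *Col3a1*+/+ aortas. The means were close, at 275 ± 75.5 (SD, n = 3) and 277 ± 102 TPM (SD, n = 4), and the highest value was that of the fourth *Col3a1*+/+ aorta. On counts with TMM scaling, edgeR's quasi-likelihood test gave a log2 fold change of -0.05 ± 0.28 (SE) with an adjusted p of 0.933. Each SE of an edgeR log2 fold change was derived as its size over the square root of the F statistic of the test.

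*Cidea*, which encodes a lipid droplet protein of brown adipocytes (chromosome 18, 67343604 to 67367785, + strand), had 114, 239 and 250.2 TPM in *Col3a1*+/G182R aortas, against 111, 128, 144 and 229.8 TPM in *Col3a1*+/+ aortas. Each genotype held low and high aortas, and the highest *Col3a1*+/+ value was that of the fourth aorta. By edgeR the log2 fold change was 0.33 ± 0.30 (SE), with an adjusted p of 0.532.

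*Dio2*, the deiodinase that makes active thyroid hormone in brown fat (chromosome 12, 90724552 to 90738438, - strand), had 15.1, 16.6 and 31.2 TPM in *Col3a1*+/G182R aortas, against 31.8, 12.5, 20.3 and 14.01 TPM in *Col3a1*+/+ aortas. One aorta of each genotype stood high, and these were not the aortas with the highest *Ucp1*. With a log2 fold change of 0.04 ± 0.32 (SE), edgeR gave an adjusted p of 0.947.

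*Elovl3*, a fatty acid elongase strongly induced in cold-exposed brown fat (chromosome 19, 46131897 to 46135694, + strand), was the thermogenic gene with the largest genotype difference by size. It had 5.90, 9.64 and 5.93 TPM in *Col3a1*+/G182R aortas, against 16.2, 9.02, 10.5 and 19.7 TPM in *Col3a1*+/+ aortas. A single pair of libraries overlapped, the second *Col3a1*+/G182R and the second *Col3a1*+/+ aorta. The edgeR log2 fold change was -1.01 ± 0.29 (SE), with an unadjusted p of 0.00615 and an adjusted p of 0.164, so the gene did not pass the threshold of 0.05. DESeq2 gave -1.02 with an adjusted p of 0.0283. That call was lost without *Col3a1*+/+ replicate 3 (adjusted p = 0.0814) or 4 (0.0575), and without *Col3a1*+/G182R replicate 1 (0.135) or 3 (0.257).

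*Ppargc1a*, the coactivator PGC-1alpha that drives mitochondrial gene expression (chromosome 5, 51454250 to 51567726, - strand), had 1.00, 1.04 and 3.31 TPM in *Col3a1*+/G182R aortas, against 0.43, 0.90, 0.70 and 1.43 TPM in *Col3a1*+/+ aortas. The third *Col3a1*+/G182R aorta stood well above all others. The edgeR log2 fold change was 0.93 ± 0.50 (SE) with an adjusted p of 0.312, and it was 0.12 without that aorta.

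Among the general fat markers, *Adipoq* had the largest difference. It encodes adiponectin, a hormone made almost only by adipocytes (chromosome 16, 23146536 to 23158028, + strand), and had 130.03, 240 and 334 TPM in *Col3a1*+/G182R aortas, against 82.9, 101, 121 and 163 TPM in *Col3a1*+/+ aortas. Only the first *Col3a1*+/G182R aorta and the fourth *Col3a1*+/+ aorta overlapped in TPM. The edgeR log2 fold change was 0.94 ± 0.30 (SE), with an unadjusted p of 0.0111 and an adjusted p of 0.17, and DESeq2 gave an adjusted p of 0.0523. *Adipoq* thus passed neither threshold. DESeq2 called it higher without *Col3a1*+/+ replicate 4 (adjusted p = 0.00323) or *Col3a1*+/G182R replicate 1 (0.00397), the pair of libraries that overlapped, and gave adjusted p-values of 0.0586 to 0.385 without any of the other 5 libraries.

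*Plin1*, which coats the lipid droplet and controls access of lipases to it (chromosome 7, 79720218 to 79732903, - strand), had 35.4, 56.6 and 99.2 TPM in *Col3a1*+/G182R aortas, against 33.4, 31.1, 42.1 and 65.7 TPM in *Col3a1*+/+ aortas, the last of these from the fourth. The edgeR log2 fold change was 0.48 ± 0.30 (SE) with an adjusted p of 0.381. Without the third *Col3a1*+/G182R aorta, the highest of all, it was 0.09.

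*Fabp4* (chromosome 3, 10204088 to 10208576, - strand) had 1662, 3282 and 3692 TPM in *Col3a1*+/G182R aortas, against 1778, 1593, 1931 and 3269 TPM in *Col3a1*+/+ aortas. Each genotype held both low and high aortas, and the fourth *Col3a1*+/+ aorta was the only high one of its genotype. Its log2 fold change by edgeR was 0.36 ± 0.31 (SE), with an adjusted p of 0.504. *Fabp4* is also expressed by capillary endothelium and macrophages, so it marks fat less strictly than *Adipoq* or *Plin1*.

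*Cfd* (chromosome 10, 79890853 to 79892655, + strand) had 911, 1402 and 1160 TPM in *Col3a1*+/G182R aortas, against 387, 447, 799 and 1138 TPM in *Col3a1*+/+ aortas. Only the fourth *Col3a1*+/+ aorta reached the *Col3a1*+/G182R range. For this gene edgeR gave a log2 fold change of 0.68 ± 0.35 (SE), with an adjusted p of 0.296.

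*Lep*, which encodes leptin (chromosome 6, 29060220 to 29073877, + strand), rested on few reads. It had 11, 28 and 90 expected counts in *Col3a1*+/G182R aortas (0.22, 0.52 and 2.29 TPM), against 47, 7, 52 and 24 in *Col3a1*+/+ aortas (1.02, 0.17, 1.31 and 0.73 TPM). The highest value was 13.5 times the lowest in TPM, the widest spread of the 10 genes. The edgeR log2 fold change was 0.20 ± 0.75 (SE) with an adjusted p of 0.895, and it was -1.12 without the third *Col3a1*+/G182R aorta, so no direction can be given for *Lep*.

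By edgeR, 0 of the 10 genes passed an adjusted p of 0.05, where 6 of the 15688 genes tested did (0.0382%). At an unadjusted p under 0.05 there were 2 of 10, *Adipoq* higher and *Elovl3* lower in *Col3a1*+/G182R aortas, against 20.4% of all genes tested. DESeq2 called 1 of 10, *Elovl3*, against 4.61% of all genes. Without the filter on low counts edgeR called 2 of 10, *Elovl3* (adjusted p = 0.0467) and *Adipoq* (0.0389), against 1.28% of the 27619 genes then tested. None of the 10 had CPM values that did not overlap between genotypes, against 20.9% of all genes tested. The fitted values were higher in *Col3a1*+/G182R aortas for 5 of 5 general fat markers (median log2 fold change 0.48) and for 3 of 5 thermogenic markers (median 0.04), where the median over all genes tested was 0.01. With 1 library left out, the median of the general fat markers ran from 0.17 without *Col3a1*+/G182R replicate 3 to 0.72 without *Col3a1*+/G182R replicate 1. That of the thermogenic markers ran from -0.11 without *Col3a1*+/+ replicate 2 to 0.21 without *Col3a1*+/+ replicate 4, so it has no stable direction.

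**Figure D2:**
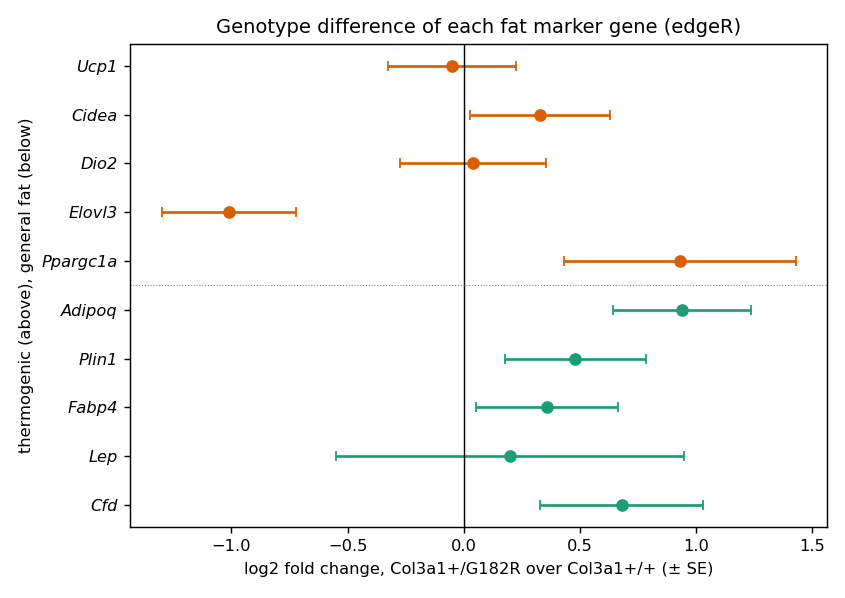
edgeR log2 fold change of each fat marker gene (horizontal axis, *Col3a1*+/G182R over *Col3a1*+/+, n = 3 and 4), with points for estimates and bars for ± 1 SE. The general fat genes lie to the right of 0, from 0.20 for *Lep* to 0.94 for *Adipoq*, and the thermogenic genes lie on both sides, from -1.01 for *Elovl3* to 0.93 for *Ppargc1a*.

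Thermogenic genes were next set against general fat genes inside each library, where the amount of fat tissue enters both sides of a ratio. The TPM ratio of *Ucp1* over *Adipoq* was 1.70, 1.51 and 0.728 in *Col3a1*+/G182R aortas, against 2.51, 2.28, 1.99 and 2.63 in *Col3a1*+/+ aortas, and the groups did not overlap. That of *Cidea* over *Adipoq* was 0.875, 0.998 and 0.750 in *Col3a1*+/G182R aortas, against 1.34, 1.27, 1.19 and 1.41 in *Col3a1*+/+ aortas. *Cidea* was thus below *Adipoq* in all 3 *Col3a1*+/G182R aortas and above it in all 4 *Col3a1*+/+ aortas, the fourth included. For *Elovl3* over *Adipoq* the ratio was 0.0454, 0.0402 and 0.0178 in *Col3a1*+/G182R aortas, against 0.195, 0.0894, 0.0869 and 0.121 in *Col3a1*+/+ aortas, again with no overlap.

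Whether a ratio separated the genotypes depended on the general fat gene below the line. Over *Adipoq*, 3 of 5 thermogenic genes did not overlap, all lower in *Col3a1*+/G182R aortas, but so did the ratios of 25.4% of all genes tested, in either direction. Over *Cfd*, *Ucp1* and *Elovl3* did not overlap, 2 of 5 against 24.6% of all genes. Over *Plin1* and over *Fabp4*, 1 of 5 did not overlap, *Elovl3* in each case, against 7.82% and 5.81% of all genes. Over *Lep* it was 0 of 5, against 0.153%. In all, 7 of 25 ratios did not overlap, and 17 of 25 had the lower mean in *Col3a1*+/G182R aortas. These ratios share their genes and are not independent of each other.

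*Cidea* over *Fabp4* had the narrowest range of the 25 ratios relative to its level, at 0.0684, 0.0728 and 0.0678 in *Col3a1*+/G182R aortas, against 0.0626, 0.0802, 0.0747 and 0.0703 in *Col3a1*+/+ aortas. Both genes varied more than 2-fold over the same libraries, so they went up and down together while their ratio stayed within a narrow range in both genotypes. *Elovl3* over *Fabp4* was 0.00355, 0.00294 and 0.00161 in *Col3a1*+/G182R aortas, against 0.0091, 0.00566, 0.00544 and 0.00603 in *Col3a1*+/+ aortas. The mean log2 CPM of the thermogenic genes minus that of the general fat genes was -1.18, -1.41 and -1.79 in *Col3a1*+/G182R aortas, against -0.912, -0.641, -1.37 and -1.09 in *Col3a1*+/+ aortas. The genotype means differed by -0.46 on the log2 scale, with a pooled SD of 0.308 between aortas, and the groups overlapped. As the score covers chosen genes, it was described and not tested.

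**Figure D3:**
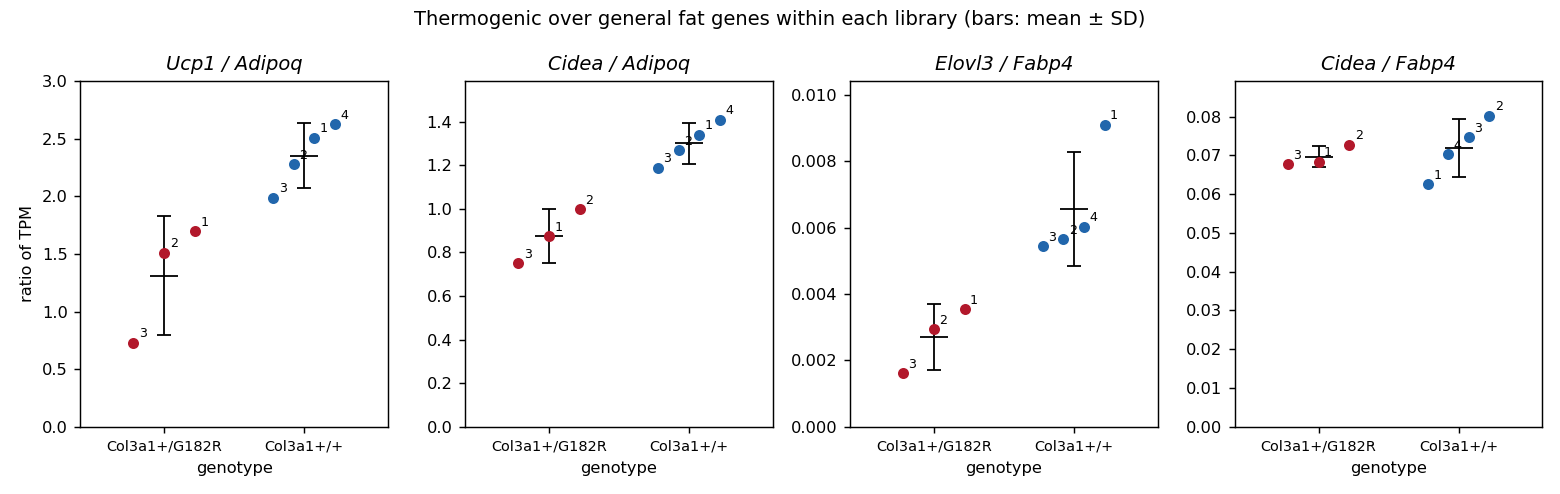
TPM ratio within each library (vertical axes, from 0) for *Ucp1* over *Adipoq*, *Cidea* over *Adipoq*, *Elovl3* over *Fabp4* and *Cidea* over *Fabp4*, with numbered points for the 3 *Col3a1*+/G182R and 4 *Col3a1*+/+ libraries and bars for mean ± SD. The first 3 ratios did not overlap between genotypes (*Ucp1* over *Adipoq* 0.728 to 1.70 against 1.99 to 2.63), and *Cidea* over *Fabp4* overlapped, at 0.0678 to 0.0728 against 0.0626 to 0.0802.

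Over the 7 libraries, log2 CPM was compared between all 45 pairs of the 10 genes by Pearson and Spearman correlation with exact permutation p-values. None of the 45 passed Benjamini-Hochberg adjustment (lowest adjusted p = 0.0658), and pairs share library depth and the amount of fat in the sample. *Cidea* and *Fabp4* had r = 0.972 (exact permutation p = 0.00516, adjusted 0.0658) and rho = 0.786 (exact permutation p = 0.048, adjusted 0.196), with r = 0.951 without the 2 libraries farthest from the median of *Cidea* and 0.969 after genotype means were subtracted. *Adipoq* and *Plin1* had r = 0.897 (exact permutation p = 0.00675, adjusted 0.0658) and rho = 0.893 (exact permutation p = 0.0123, adjusted 0.179), with r = 0.811 without the 2 farthest libraries and 0.918 after genotype means were subtracted. *Cidea* had r of 0.804 to 0.972 with the general fat genes other than *Lep* (0.405), and r = 0.733 with *Ucp1*, which was 0.371 without the 2 farthest libraries and 0.789 after genotype means were subtracted.

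*Ucp1* and *Adipoq* had r = 0.405 (exact permutation p = 0.363, adjusted 0.595) and rho = 0.429 (exact permutation p = 0.354, adjusted 0.636), with r = 0.200 without the 2 farthest libraries and 0.608 after genotype means were subtracted. *Ucp1* and *Dio2*, both induced by noradrenaline in brown fat, had r = -0.539 (exact permutation p = 0.21, adjusted 0.449) and rho = -0.500 (exact permutation p = 0.267, adjusted 0.522), with r = -0.464 without the 2 farthest libraries and -0.538 after genotype means were subtracted. *Elovl3* and *Adipoq* had r = -0.448 across genotypes and 0.246 after genotype means were subtracted. Within the general fat genes the median r was 0.760 over 10 pairs, within the thermogenic genes 0.00306 over 10 pairs, and between the classes 0.405 over 25 pairs.

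**Figure D4:**
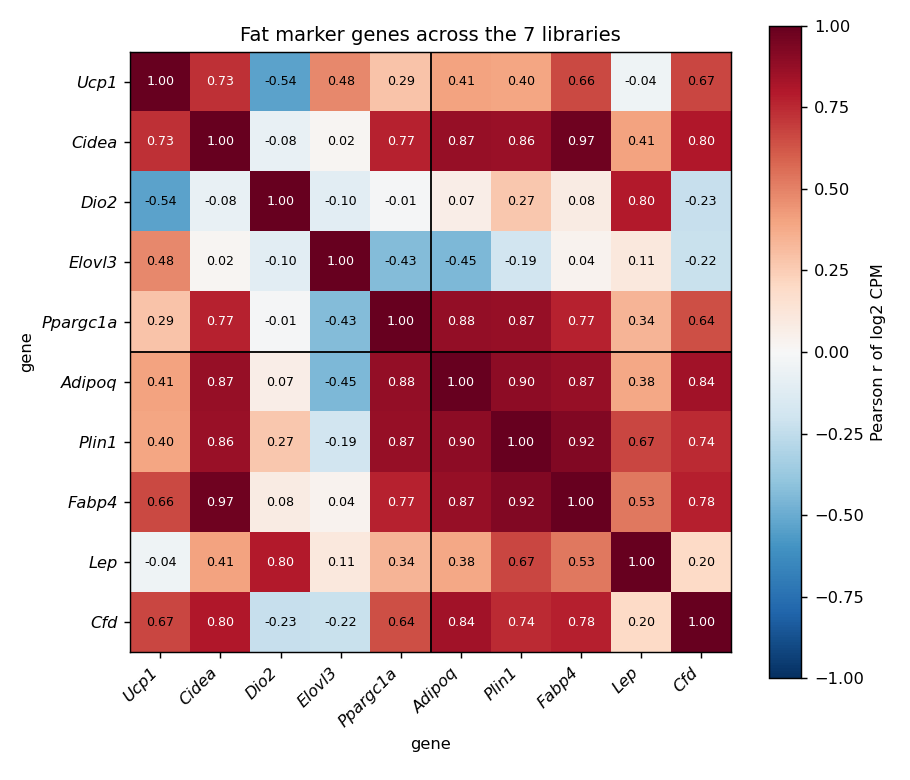
Pearson r of log2 CPM between each pair of the 10 fat marker genes over the 7 libraries, with thermogenic genes first on both axes and lines between the classes. Red squares join *Cidea* and *Ppargc1a* to the general fat genes other than *Lep*, with r = 0.972 for *Cidea* and *Fabp4*, and *Dio2* and *Elovl3* have pale or blue squares, down to -0.539 for *Ucp1* and *Dio2*, apart from 0.795 for *Dio2* and *Lep* and 0.479 for *Ucp1* and *Elovl3*.

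Among 12715 genes with a mean of at least 1 CPM, those whose log2 CPM ran closest to *Adipoq* over the 7 libraries were *Tmem45b* (r = 0.989), *Amy1* (0.987), *Plac8* (0.987), *Cmbl* (0.986), *Cdo1* (0.982), *Chst15* (0.979), *Pck1* (0.978) and *B3galt2* (0.977). *Pck1* encodes the phosphoenolpyruvate carboxykinase used in adipocytes to make glycerol for triglycerides. Closest to *Ucp1* were *Ppp1r1a* (r = 0.974), *Gng11* (0.964), *Apoc1* (0.956), *Cyc1* (0.940), *Ddt* (0.938), *Klhl12* (0.937), *Cox7a1* (0.936) and *Acads* (0.923). *Cyc1* and *Cox7a1* encode subunits of the respiratory chain, and *Acads* encodes an enzyme of mitochondrial fatty acid oxidation. No gene appeared among the closest 8 of both. *Adipoq* itself stood at place 2724 for *Ucp1*, and *Cidea* at place 328, while for *Adipoq* the place of *Cidea* was 172. With 7 libraries that share depth, these values describe the libraries only.

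The wider fat programme was read from lists chosen for function. Of 30 further brown fat and thermogenic genes, 25 were tested, 0 passed in either direction by edgeR or DESeq2, and fitted values were higher for 18 and lower for 7 (median log2 fold change 0.08). The lowest p-values were those of *Ebf2*, a transcription factor of brown fat precursors (log2 fold change 0.93, 1.77, 2.29 and 3.03 TPM in *Col3a1*+/G182R aortas, against 1.68, 0.57, 1.14 and 1.70 TPM in *Col3a1*+/+ aortas), *Ntrk3*, a neurotrophin receptor (-0.58), *Ppara*, a regulator of fatty acid oxidation (0.78), and *Gk*, glycerol kinase (0.26). The edgeR adjusted p-values of these 4 genes were 0.179, 0.190, 0.215 and 0.252. Of the 25 genes tested, 2 did not overlap between genotypes in CPM, *Ebf2* and *Gk*, against 20.9% of all genes tested. Without the fourth *Col3a1*+/+ aorta the median of the list was 0.39, and without the third *Col3a1*+/G182R aorta it was -0.03.

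Of 30 adipocyte identity and lipid droplet genes, all were tested, 0 passed in either direction by edgeR or DESeq2, and fitted values were higher for 28 and lower for 2 (median 0.30). *Retn*, the adipocyte hormone resistin, had the lowest p (log2 fold change 0.92, edgeR adjusted p = 0.171), with 54.6, 93.1 and 101 TPM in *Col3a1*+/G182R aortas, against 31.4, 28.3, 59.7 and 47.7 TPM in *Col3a1*+/+ aortas. It was followed by *Pde3b*, a phosphodiesterase that lowers cAMP under insulin (0.90), *Cd36*, a fatty acid transporter (0.88), and *G0s2*, an inhibitor of the main triglyceride lipase (0.97). The median of this list was 0.50 without the fourth *Col3a1*+/+ aorta or without the first *Col3a1*+/G182R aorta, and 0.06 without the third *Col3a1*+/G182R aorta.

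Of 15 fatty acid synthesis genes, 0 passed by either tool, and fitted values were higher for 11 and lower for 4 (median 0.30, and -0.09 without the third *Col3a1*+/G182R aorta). *Me1*, the malic enzyme that supplies NADPH, had the lowest p (log2 fold change 0.91, edgeR adjusted p = 0.187). Its level was 79.3, 96.7 and 304 TPM in *Col3a1*+/G182R aortas, against 79.8, 67.4, 56.2 and 81.9 TPM in *Col3a1*+/+ aortas, with the third *Col3a1*+/G182R aorta far above all others. *Slc25a1*, the mitochondrial citrate carrier, had 0.62, *Pck1* 0.57 and *Scd1*, the stearoyl-CoA desaturase, 0.71 on the log2 scale.

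Of 15 genes for adipokine receptors, complement partners of adipsin and adrenergic input, edgeR called 0 and DESeq2 called 1, against 4.61% of all genes tested. That gene was *Lepr*, the leptin receptor, with 2.14, 3.40 and 2.59 TPM in *Col3a1*+/G182R aortas, against 1.97, 1.73, 1.36 and 1.20 TPM in *Col3a1*+/+ aortas. Its log2 fold change was 0.90 by either tool (edgeR adjusted p = 0.166, DESeq2 adjusted p = 0.0402). In CPM, 3 of the 15 genes, *Lepr* among them, did not overlap between genotypes, against 20.9% of all genes tested. *C3*, the complement component downstream of adipsin, had a log2 fold change of 0.64, *Creb1*, the factor that binds cAMP response elements, 0.34, and *C3ar1*, the receptor for the C3a fragment, 0.69, and none of these passed either test. The list as a whole had fitted values higher for 12 genes and lower for 3 (median 0.31, between 0.16 and 0.50 with any 1 library left out).

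Markers of other cells in the aorta were read in the same way. All 12 macrophage markers had higher fitted values in *Col3a1*+/G182R aortas (median 0.74, and 0.26 without the third), and their summed level was 193 to 490 CPM in *Col3a1*+/G182R aortas, against 152 to 227 CPM in *Col3a1*+/+ aortas. edgeR called 0 of the 12, and DESeq2 called *Lyz2* (log2 fold change 1.00, adjusted p = 0.029) and *Lyve1* (1.24, 0.0341). Over all genes tested DESeq2 called 4.61%, the share to set beside the calls in each of these lists. The highest macrophage sum was in the third *Col3a1*+/G182R aorta, which also had the highest TPM of *Cidea*, *Ppargc1a*, *Adipoq*, *Plin1*, *Fabp4* and *Lep*. In CPM, the unit of that sum, *Cidea* was highest in the second *Col3a1*+/G182R aorta instead (174, against 164 in the third). Markers of adventitial fibroblasts and preadipocytes summed to 1700 to 2040 CPM in *Col3a1*+/G182R aortas, against 1070 to 1930 CPM in *Col3a1*+/+ aortas, with fitted values higher for 11 of 12 tested (median 0.44) and *Lum* alone called, by DESeq2 (1.20, adjusted p = 0.0425).

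Red blood cell genes had higher fitted values for 5 of 5 tested (229 to 664 CPM in *Col3a1*+/G182R aortas, against 152 to 402 CPM in *Col3a1*+/+ aortas), with 0 called by either tool. Lymphocyte markers summed to 2.96 to 7.62 CPM in *Col3a1*+/G182R aortas, against 1.58 to 3.86 CPM in *Col3a1*+/+ aortas, and only 2 of 10 had enough counts. Cardiac muscle markers ran the other way, with lower fitted values for 5 of 6 tested (median -1.02). DESeq2 called 3 of the 6 lower in *Col3a1*+/G182R aortas, against 4.61% of all genes tested in either direction. They were *Myh6* (log2 fold change -3.78, adjusted p = 0.0326), *Myl4* (-0.95, 0.0193) and *Tnni3* (-1.06, 0.0114). *Myh6* had 16.2, 12.85, 2.38 and 1.67 TPM in *Col3a1*+/+ replicates 1 to 4. The list summed to 77 to 93.1 CPM in *Col3a1*+/G182R aortas, against 77.8 to 147 CPM in *Col3a1*+/+ aortas. A large part of that sum was *Ryr2* (means of 64.7 and 63.3 CPM), with a log2 fold change of 0.03. Skeletal muscle markers had a median of -0.77 over 5 tested, from sums of 13 to 14.5 CPM in *Col3a1*+/G182R aortas, against 18 to 20.4 CPM in *Col3a1*+/+ aortas. Endothelial markers had a median of 0.06 over 8 tested and smooth muscle markers one of -0.04 over 10, with 0 called in either list. The part of these other cells in the values of the fat genes was not tested.

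**Figure D5:**
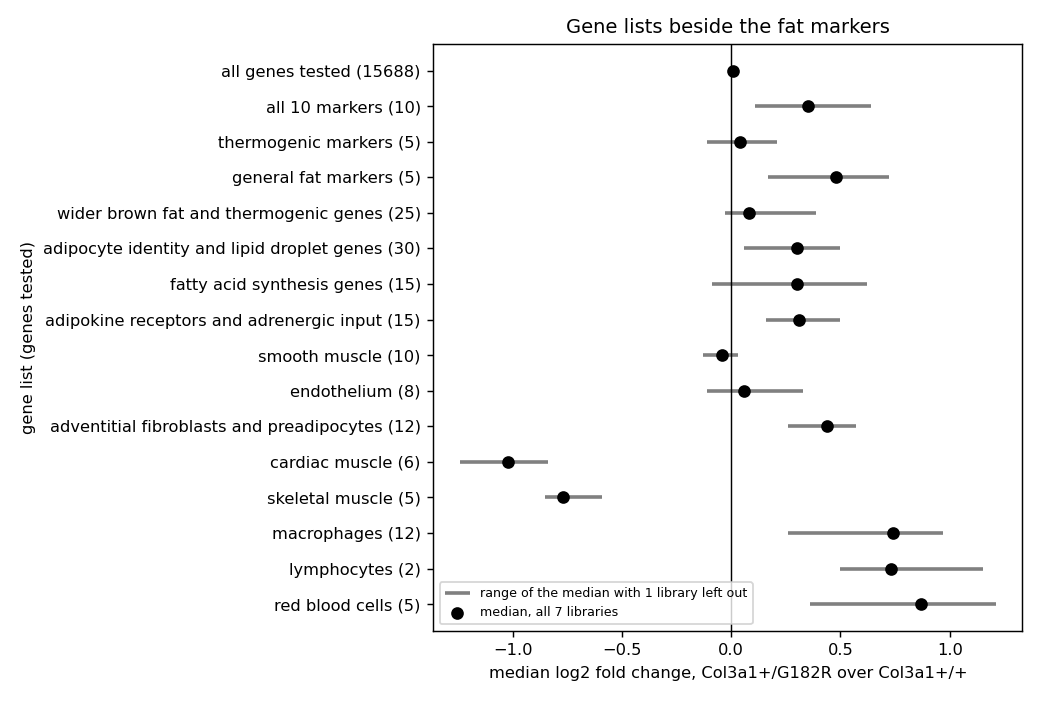
Median log2 fold change (horizontal axis, *Col3a1*+/G182R over *Col3a1*+/+) of the fat marker genes and the other gene lists, with black points for all 7 libraries and grey lines for the range with any 1 library left out. The general fat markers (0.48) and the macrophage list (0.74) lie right of all genes tested (0.01), the cardiac list (-1.02) left of it, and the thermogenic markers (0.04) close to it.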

How the data were processed

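RNA from thoracic aortas (poly-A selected, strand-specific TruSeq libraries, paired 75-base reads) was sequenced by the authors. Per the labels, the authors aligned reads with STAR 2.7.6a to GRCm38 and deposited gene tables from RSEM 1.3.1, while the study's methods name featureCounts for its own results. The deposited expected counts, which share multi-mapping reads between genes, were rounded. The deposited TPM are scaled within a library and entered no main test. The effective lengths deposited by the authors served as an alternative offset. Symbols came from GENCODE M21, with 55227 of 55487 identifiers found.

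Genes were kept with filterByExpr (minimum count 10), normalized with TMM and compared with edgeR 4.0.16 (quasi-likelihood, two-sided, R 4.3.3), with Benjamini-Hochberg adjustment over 15688 genes. DESeq2 1.42.0, limma 3.58.1, other filters, scalings and leave-one-out fits were alternatives. Correlations used all 5040 orders. The code was tested on simulated data. Samples were grouped by title. The 10 genes and all lists were chosen with earlier results of these data known. From each wider fat list, genes past the threshold, or otherwise up to 4 with the lowest edgeR p, were named, apart from those named for their levels. In the lists of other cells only the genes called by DESeq2 were named. *Ryr2* was added for its part in the cardiac sum, and *Acta2* and *Myh11* as examples. No protein sequence was used here.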

Additional observations from a re-analysis of the deposited data

How the results depend on the processing

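The number of genes past the threshold (6 by edgeR) was 723 by DESeq2, 11 by limma-voom, 546 with library quality weights, 353 with no low-count filter, 0 with at least 10 counts in every library, 14 with an effective length offset, 16 by limma on log2(TPM + 0.1), 0 for a change over 1.5-fold, and 0 to 183 with 1 library left out. Of the 10 fat markers (0 by edgeR), DESeq2 called 1, no low-count filter gave 2, and leaving out 1 library gave 0 by edgeR and 0 to 1 by DESeq2, an alternative added after seeing the data. The replicate block called 46 genes, *Adipoq* (1.06, adjusted p = 0.0425) among them as 1 of 10 fat markers. Libraries with equal replicate numbers showed no pairing over all genes (correlations -0.0469, 0.0153 and 0.0777 of deviations from genotype means). This check could miss a pairing that moves few genes, so the block is given as an alternative fit only. Under the block *Ucp1* was 0.19, *Dio2* -0.06 and *Lep* -0.0029 on the log2 scale. The fourth *Col3a1*+/+ library is alone in its block and so adds nothing to the genotype contrast of that fit. With that library left out and no block, edgeR gave 0.21 for *Ucp1*, -0.10 for *Dio2*, 0.13 for *Lep* and 1.11 for *Adipoq*. The sign of 3 genes near 0 turned elsewhere too. *Ucp1* was 0.25 and *Dio2* -0.07 with library quality weights, and *Ucp1* was 0.02 by limma on log2(TPM + 1) and on log2(TPM + 0.1). *Lep* was -0.13 by limma-voom and -0.27 with library quality weights. With 1 library left out, edgeR gave -0.33 to 0.21 for *Ucp1*, -0.30 to 0.32 for *Dio2* and -1.12 to 0.66 for *Lep*, and DESeq2 -0.34 to 0.22, -0.29 to 0.32 and -1.13 to 0.67. The cause was not tested. The other 7 genes kept their sign in every fit, and 215 of 249 fits of single genes kept both direction and side of the threshold. The thermogenic minus general fat difference (-0.46) was -0.93 for *Ucp1* minus *Adipoq* alone, -0.65 without *Ppargc1a* and -0.59 without *Lep*. No other gene was left out, so how far this difference rests on *Elovl3* was not tested. With 1 library left out, the difference ran from -0.6 to -0.29. *Lep* rested on the fewest reads of the 10 genes, 7 to 90 counts per library.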
